A study of Gallus gallus with 15 samples.

Results

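The genes described here encode enzymes that build, exchange, remodel and break down the glycerophospholipids of cell membranes. A list of 45 chicken gene symbols was matched to the gene names of the table, and 39 of them were found among its 23599 gene names. CHKB, AGPAT5, CDIPT, LPCAT4, PLA2G15 and PLD2 had no match and were not analysed here. ETNK2 and CDS1 lay below a mean of 0.5 FPKM (mapped fragments scaled by transcript length and by 1000000 fragments of the library), so 37 genes entered the tests.

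Breast muscle was taken from Jingyuan chickens, a local breed reared on 1 farm with free access to feed and water, slaughtered at 42, 126 or 180 days of age. Their mean body weights were 0.422 ± 0.03 kg, 1.68 ± 0.14 kg and 2.03 ± 0.09 kg, as the labels state them. The libraries were made from polyA RNA of 15 birds, 5 per age, with no treatment, and the birds of each age were different animals. The study describes the birds as hens and places their sexual maturity at 126 days. Age is the only factor that the labels separate, so age, body weight, sexual maturity and slaughter day cannot be told apart.

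Phosphatidylcholine and phosphatidylethanolamine are the main membrane phospholipids of muscle. In the Kennedy pathway choline or ethanolamine is phosphorylated, activated with CTP and joined to diacylglycerol, while phosphatidylserine is made by exchange of the head group. The diacylglycerol backbone comes from stepwise acylation of glycerol phosphate, and the fatty acyl chains are afterwards exchanged by phospholipases and lysophospholipid acyltransferases.

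The values of a bird summed to between 413638 and 481698 FPKM, and any pair of birds had an r of 0.926 to 0.982 across genes on the log2 scale. The depth of the libraries is unknown because the table holds no read counts. The labels give breast as the tissue but also carry the terms myoblast and primary cell. The 5 of 10 fast fibre markers found summed to 5969 to 18364 FPKM in a bird. TNNT3 lay between 3884 and 12885 FPKM and PVALB between 0 and 4.37 FPKM. Of 8 myoblast and satellite cell markers 7 were found, summing to 508 to 2948 FPKM. Among them PAX7 lay between 1.37 and 6.60, MYOD1 between 56.3 and 573 and DES between 415 and 2777 FPKM. The samples were treated as whole muscle on the tissue label and the fast fibre level, and the other label terms were not tested. Of 10 slow fibre markers 9 were found, summing to 1367 to 3799 FPKM. TNNC1 held most of that, at 1331 to 3790 FPKM, while MYL2 was listed at 0 in every bird. Bird 1 of 180 days stood apart with summed B cell markers (6 of 6 found) of 531 FPKM, against 7.33 to 14.0 FPKM in the other birds of its age, and with macrophage markers (8 of 8) of 1349 FPKM against 71.8 to 137 FPKM. CD74 held 1122 FPKM of that macrophage sum. T cell markers (8 of 8) were at 96.15 FPKM in the same bird, against 6.15 to 10.44 FPKM. That bird was also the highest of its age for erythrocyte, endothelial, fibroblast and adipocyte markers. Bird 1 of 126 days had fibroblast markers (6 of 6) of 1272 FPKM against 194 to 333 FPKM, macrophage markers of 603 FPKM against 140 to 237 FPKM, and erythrocyte markers (4 of 6) of 276 FPKM against 31.1 to 50.3 FPKM. Its B cell markers, at 70.8 FPKM against 26.4 to 38.3 FPKM, and its endothelial markers, at 183 FPKM against 81.9 to 119 FPKM, were also the highest of its age. So were its T cell markers, at 25.5 FPKM against 11.2 to 13.7 FPKM, and its adipocyte markers, at 70.8 FPKM against 36.2 to 48.0 FPKM. Bird 5 of 42 days had fast fibre markers of 5969 FPKM against 11596 to 18364 FPKM. In whole muscle, fewer cells of a type and less RNA per cell cannot be told apart.

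Differences between ages were tested with limma on log2(FPKM + 0.1), with p-values adjusted over all genes tested and a threshold of 0.05. A log2 fold change is the later age over the earlier on that scale, which understates the change of low genes. Only ETNPPL, which breaks down phosphoethanolamine, passed the test between a pair of ages, and it was lower at 180 days than at either earlier age. Between 126 and 42 days 0 of the 37 genes passed, against 3.21% of the 11482 genes tested (2.57% lower at 126 days), and 5 had an unadjusted p under 0.05, which 19.6% of all genes had. Between 180 and 42 days 1 of 37 passed, against 3.41% of 11691 genes (2.81% lower and 0.599% higher at 180 days). Between 180 and 126 days 1 of 37 passed, against 1.25% of 11515 genes (0.521% lower at 180 days). ETNPPL was also past 2-fold in both, which with the test held for 2.93% and 0.921% of all genes. In the F test over the 3 ages, 2 of 37 passed, ETNPPL and the acyltransferase AGPAT3, against 6.28% of 11601 genes, and 8 had an unadjusted p under 0.05, against 23%. These shares were near or below those of all genes in 3 of the 4 tests, and in the other the count was 1 gene.

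**Figure D1:**
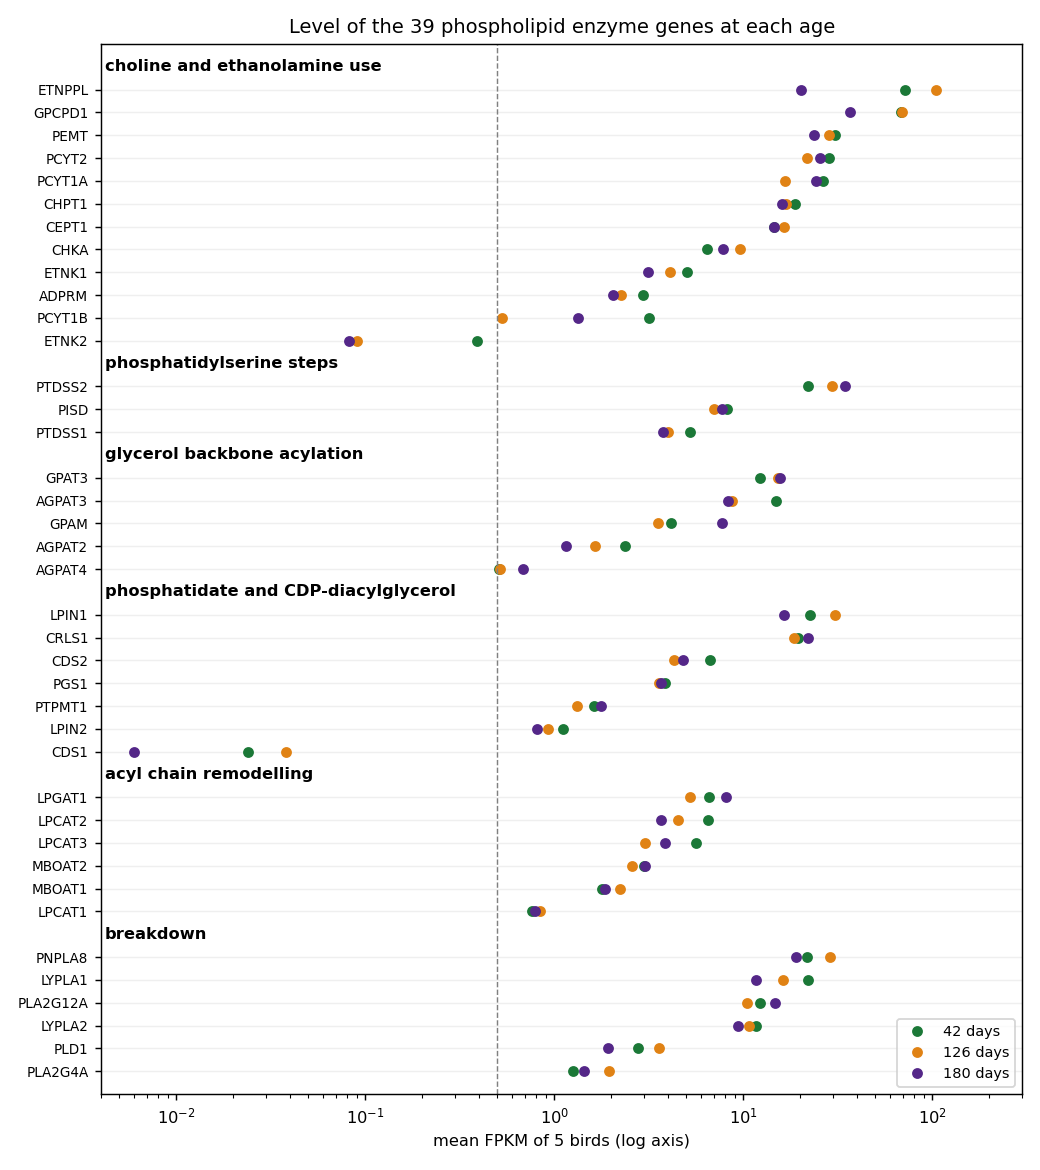
Mean FPKM of 5 birds at 42, 126 and 180 days (log axis) for the 39 genes, grouped by step and ordered within a step by the mean over 15 birds. The dashed line marks 0.5 FPKM; ETNK2 and CDS1 lie below it at each age, and ETNPPL reaches the highest mean, 104.5 FPKM at 126 days.

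ETNPPL, ethanolamine-phosphate phospho-lyase, removes phosphoethanolamine from phospholipid synthesis by splitting it into acetaldehyde, ammonia and phosphate. It had the highest mean of the 39 genes over the 15 birds, 65.4 FPKM. At 42 days its level was 41.8, 53.4, 64.3, 129 and 68.5 FPKM in birds 1 to 5. At 126 days it was 183, 70.9, 96.1, 87.3 and 85.1 FPKM. At 180 days it was 18.0, 22.2, 22.6, 20.8 and 17.0 FPKM. Every bird of 180 days was thus below every younger bird, and the spread was also smallest there (20.1 ± 2.48 FPKM, SD, n = 5, against 71.4 ± 33.8 at 42 days and 104.5 ± 44.9 at 126 days). The 42- and 126-day birds overlapped.

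ETNPPL fell by 2.30 on the log2 scale between 126 and 180 days (SE 0.23, 95% interval -2.79 to -1.80, limma adjusted p = 0.00132), which is 4.91-fold lower. Against 42 days it fell by 1.72 (SE 0.26, 95% interval -2.28 to -1.16, limma adjusted p = 0.00501), which is 3.30-fold lower. Both comparisons share the 180-day birds. Between 42 and 126 days the log2 fold change was 0.57 (SE 0.31, limma adjusted p = 0.331). The F test gave a limma adjusted p of 0.000758. Both falls stayed past the threshold with each bird left out in turn, the log2 fold change lying between -2.41 and -2.07 against 126 days and between -1.89 and -1.48 against 42 days.

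The summed level of the 6 fibroblast markers was also lowest at 180 days, at 39.4 to 219 FPKM against 246 to 816 FPKM at 42 days and 194 to 1272 FPKM at 126 days. Bird 1 of 126 days was highest for those markers as well as for ETNPPL. Bird 1 of 180 days, with 219 FPKM of fibroblast markers, lay inside the 126-day range of the markers and had 18.0 FPKM of ETNPPL. The part of fibroblasts in the ETNPPL levels was not tested. Without bird 1 of 126 days, bird 1 of 180 days and bird 5 of 42 days together, the log2 fold change of ETNPPL was -2.04 between 126 and 180 days (limma adjusted p = 0.000832) and -1.67 between 42 and 180 days (limma adjusted p = 0.00739).

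**Figure D2:**
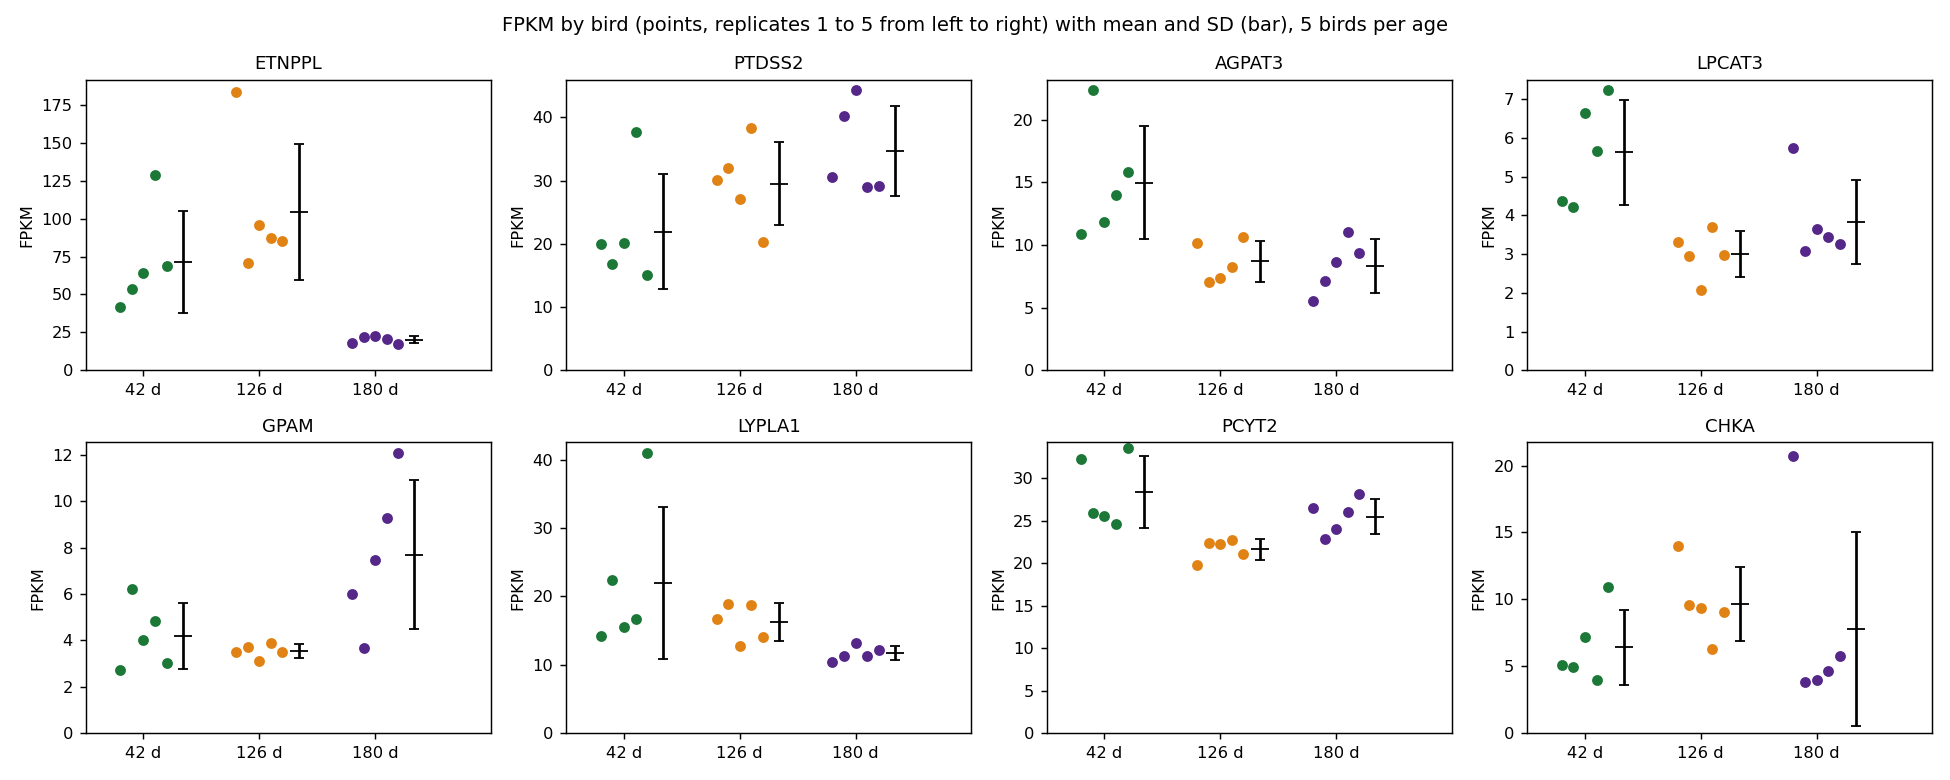
FPKM in each bird (points, birds 1 to 5 from left to right) with the mean and SD of 5 birds (bar) at 42, 126 and 180 days for 8 genes. ETNPPL at 180 days (17.0 to 22.6 FPKM) lies below every younger bird, while CHKA at 180 days has 1 bird at 20.7 FPKM and the others at or below 5.78 FPKM.

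PCYT2 makes CDP-ethanolamine from phosphoethanolamine and so uses the same substrate as ETNPPL. Its level was 32.3, 26.0, 25.6, 24.6 and 33.6 FPKM at 42 days, 19.8, 22.4, 22.3, 22.8 and 21.1 FPKM at 126 days, and 26.5, 22.9, 24.0, 26.0 and 28.2 FPKM at 180 days. The 126-day birds were the lowest, with no overlap with either other age. This holds for the sum of 7 entries. In the largest entry alone, bird 3 of 180 days (18.78 FPKM) was below bird 4 of 126 days (18.96 FPKM). The 42-day birds, at 19.19 FPKM or more, stayed above all 126-day birds there. For the sum, neither difference from the other ages passed the test. The log2 fold change was -0.38 between 42 and 126 days (95% interval -0.70 to -0.06, limma adjusted p = 0.186) and 0.23 between 126 and 180 days (limma adjusted p = 0.366). Within a bird, the FPKM of ETNPPL over that of PCYT2 was 1.29 to 5.25 at 42 days, 3.17 to 9.28 at 126 days and 0.605 to 0.970 at 180 days. ETNPPL was thus the higher of the pair in all 10 younger birds and PCYT2 in all 5 birds of 180 days, a description that rests on the ETNPPL values above.

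Groups that did not overlap were counted for every gene, on the sum of its entries. Between 42 and 126 days 3 of 37 genes did not overlap, AGPAT3, LPCAT3 and PCYT2, all lower at 126 days, against 5.09% of all genes in that direction (6.45% in either). Between 42 and 180 days ETNPPL and LYPLA1 did not overlap, 2 of 37, both lower at 180 days, against 4.46% of all genes in that direction (5.67% in either). Between 126 and 180 days 4 of 37 did not overlap, against 4.32% of all genes in either direction. ETNPPL was the lower there, as were 1.77% of all genes, and CRLS1, PCYT1B and PCYT2 were higher at 180 days, against 2.54% of all genes in that direction.

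The other ethanolamine genes were lower in level. ETNK1, the ethanolamine kinase measured above the filter, had means of 5.02, 4.12 and 3.13 FPKM at 42, 126 and 180 days. The mean at 42 days held bird 5 with 13.5 FPKM, while the other birds of that age were at 2.60 to 3.03 FPKM. The second kinase gene, ETNK2, reached at most 0.85 FPKM. CEPT1, which joins CDP-choline or CDP-ethanolamine to diacylglycerol, had means of 14.6 ± 4.86, 16.3 ± 2.78 and 14.5 ± 3.68 FPKM (SD, n = 5 each), with overlap of all ages.

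In the choline branch, choline kinase alpha, CHKA, which phosphorylates choline, was at 5.07, 4.90, 7.17, 3.93 and 10.9 FPKM at 42 days. At 126 days it was at 14.0, 9.60, 9.35, 6.29 and 9.03 FPKM, and at 180 days at 20.7, 3.78, 3.96, 4.63 and 5.78 FPKM. A single 180-day bird, bird 1, was above every 126-day bird, and the other 4 were below all of them. This holds for the sum of 2 entries. In the larger entry alone, birds 4 and 5 of 180 days (4.63 and 4.51 FPKM) were above bird 4 of 126 days (4.07 FPKM). With all birds the log2 fold change between 126 and 180 days was -0.61 (limma adjusted p = 0.536). Without bird 1 of 180 days, which also carried the high B cell and macrophage markers, it was -1.05 (limma adjusted p = 0.0338). This was the 1 of 10 fits with a bird left out that passed. In that fit 4.48% of all genes passed, against 1.25% with all birds. Under the 8 other settings the log2 fold change lay between -0.61 and -0.29 (limma adjusted p of 0.251 to 0.806). The part of B cells and macrophages in the CHKA level was not tested. Between 42 and 126 days the log2 fold change was 0.64 (limma adjusted p = 0.244).

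PCYT1A and PCYT1B encode the CTP-using enzymes that control the rate of phosphatidylcholine synthesis. PCYT1A had medians of 26.4, 16.2 and 25.6 FPKM at 42, 126 and 180 days, with ranges of 17.8 to 38.5, 14.2 to 19.7 and 15.8 to 30.7 FPKM. The 126-day birds were at the low end but overlapped both other ages, with a log2 fold change of -0.61 from 42 days (limma adjusted p = 0.134). PCYT1B was lower throughout, at 0.39 to 0.71 FPKM at 126 days and 0.73 to 1.80 FPKM at 180 days. These groups did not overlap, yet the log2 fold change of 1.14 did not pass (limma adjusted p = 0.132). Most of the difference lay in the second entry, at 0.60 to 1.42 FPKM at 180 days. At 126 days that entry was at 0.63 FPKM in bird 3 and listed at 0 in the others. The first entry overlapped, at 0 to 0.71 FPKM at 126 days and 0 to 0.86 FPKM at 180 days. At 42 days PCYT1B lay between 0.51 and 2.54 FPKM in 4 birds and at 11.5 FPKM in bird 5.

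The remaining genes of this step overlapped between all ages. CHPT1, the cholinephosphotransferase of the Golgi, had means of 18.7, 16.9 and 16.0 FPKM. PEMT, which methylates phosphatidylethanolamine to phosphatidylcholine and is best known from liver, had means of 30.6 ± 4.76, 28.5 ± 2.21 and 23.7 ± 7.89 FPKM (SD, n = 5 each), with a log2 fold change between 42 and 180 days of -0.41 (95% interval -0.90 to 0.08, limma adjusted p = 0.376). GPCPD1, which cleaves glycerophosphocholine and frees choline, varied widely between birds of an age. Its range was 27.9 to 127 FPKM at 42 days, 25.7 to 135 FPKM at 126 days and 19.5 to 50.6 FPKM at 180 days. Its log2 fold change between 126 and 180 days was -0.77 (limma adjusted p = 0.364). ADPRM, a phosphodiesterase that acts on CDP-alcohols in mammals, stayed between 1.46 and 4.76 FPKM.

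**Figure D3:**
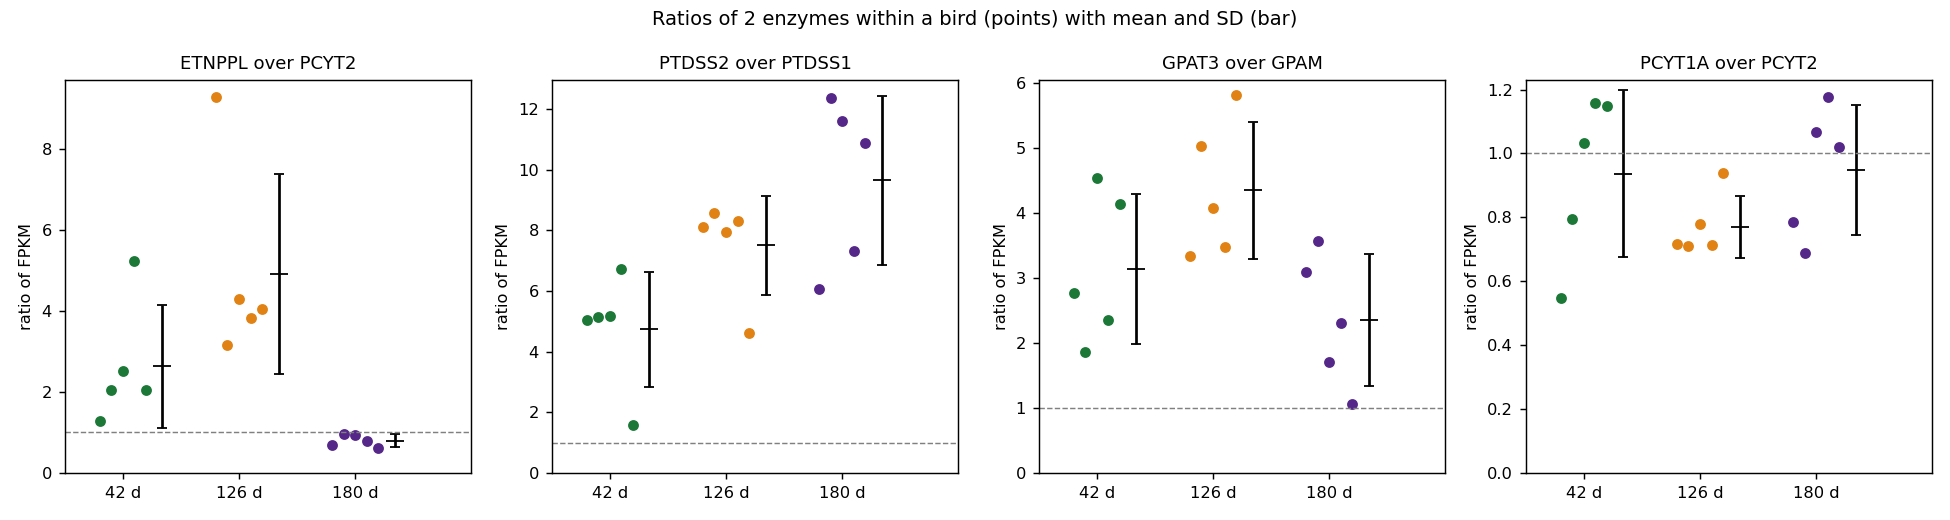
Ratio of the FPKM of 2 enzymes within each bird (points) with the mean and SD of 5 birds (bar) at 42, 126 and 180 days; the dashed line marks a ratio of 1. ETNPPL over PCYT2 lies below 1 in the 5 birds of 180 days and above 1 in the 10 younger birds, and PTDSS2 over PTDSS1 lies above 1 in all 15.

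Phosphatidylserine synthases exchange the head group of phosphatidylcholine (PTDSS1) or phosphatidylethanolamine (PTDSS2) for serine. PTDSS2 was at 20.0, 16.8, 20.1, 37.7 and 15.1 FPKM at 42 days, 30.0, 31.9, 27.0, 38.4 and 20.3 FPKM at 126 days, and 30.6, 40.3, 44.4, 29.0 and 29.2 FPKM at 180 days. All birds of 180 days were above 4 of the 5 birds of 42 days, and bird 4 of 42 days lay within the 180-day range. The log2 fold change between 42 and 180 days was 0.71 (SE 0.24, limma adjusted p = 0.140). Without bird 4 of 42 days it was 0.93 (limma adjusted p = 0.0351), so the call turned on that bird. This was the 1 of 10 fits with a bird left out that passed. PTDSS1 had means of 5.24, 3.98 and 3.76 FPKM and was below PTDSS2 in all 15 birds, the ratio of the pair having medians of 5.15, 8.12 and 10.9 at the 3 ages. PISD, the mitochondrial enzyme that decarboxylates phosphatidylserine to phosphatidylethanolamine, ranged from 2.35 to 17.9 FPKM with overlap of all ages.

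Of the enzymes that make the first acylation of glycerol phosphate, the list holds GPAM at the mitochondrion and GPAT3 at the endoplasmic reticulum. GPAT3 was the higher of the pair in all 15 birds. Its level was 7.57, 11.6, 18.1, 11.4 and 12.5 FPKM at 42 days, 11.7, 18.6, 12.7, 13.5 and 20.2 FPKM at 126 days, and 18.5, 13.1, 12.8, 21.4 and 12.7 FPKM at 180 days. The ages overlapped, with a log2 fold change between 42 and 180 days of 0.37 (95% interval -0.15 to 0.90, limma adjusted p = 0.468). GPAM was at 2.73 to 6.23 FPKM at 42 days and 3.11 to 3.89 FPKM at 126 days. At 180 days it was at 5.98, 3.66, 7.48, 9.29 and 12.1 FPKM, so 4 of 5 birds were above every 126-day bird and bird 2 was not. The log2 fold change of GPAM was 1.00 between 126 and 180 days (SE 0.28, 95% interval 0.39 to 1.60, limma adjusted p = 0.104) and 0.83 between 42 and 180 days (limma adjusted p = 0.201). In the F test its limma adjusted p was 0.0754 with all birds. With 1 bird left out it lay between 0.0243 and 0.189. It passed in 1 of 15 such fits, the one without bird 2 of 180 days.

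AGPAT3, which adds the second acyl chain and makes phosphatidate, differed among the ages in the F test (limma adjusted p = 0.0497). It was at 10.9, 22.3, 11.9, 14.0 and 15.8 FPKM at 42 days, 10.1, 7.05, 7.37, 8.22 and 10.6 FPKM at 126 days, and 5.49, 7.08, 8.67, 11.1 and 9.32 FPKM at 180 days. The youngest birds were highest, with no overlap with 126 days and a single bird of 180 days inside their range. Neither pairwise difference passed with 2 ages at a time. The log2 fold change was -0.75 from 42 to 126 days (SE 0.22, limma adjusted p = 0.0860). From 42 to 180 days it was -0.83 (SE 0.24, limma adjusted p = 0.0845), which passed when all 3 ages shared a fit (limma adjusted p = 0.0485). The F test call lay at the threshold and was kept in 4 of 15 fits that each left out 1 bird (limma adjusted p of 0.0418 to 0.143), and it was lost under 5 of 7 other settings, the adjusted p lying between 0.0475 and 0.326. AGPAT2 and AGPAT4 were lower in level, with means of 0.510 to 2.35 FPKM.

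Phosphatidate is either dephosphorylated to diacylglycerol by the lipins or activated, by the CDS enzymes among others, towards cardiolipin and phosphatidylinositol. LPIN1, the main lipin of muscle in mammals, was at 9.61, 13.7, 8.58, 23.1 and 58.0 FPKM at 42 days, 14.7, 35.8, 18.9, 63.5 and 20.0 FPKM at 126 days, and 8.72, 12.7, 8.66, 33.7 and 18.7 FPKM at 180 days. Birds of 1 age thus differed more than the ages did, and the log2 fold change between 126 and 180 days of -0.87 had a 95% interval of -1.85 to 0.10 (limma adjusted p = 0.380). LPIN2 was lower than LPIN1 in all 15 birds, at 0.49 to 2.32 FPKM. CDS2 had means of 6.63, 4.32 and 4.83 FPKM, while CDS1 reached at most 0.12 FPKM.

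No gene of the mitochondrial cardiolipin branch passed a test between ages. PGS1, which makes phosphatidylglycerophosphate, had means of 3.86 ± 0.968, 3.58 ± 0.417 and 3.69 ± 0.885 FPKM (SD, n = 5 each). PTPMT1, which dephosphorylates that product, had means of 1.63, 1.32 and 1.76 FPKM. CRLS1, the cardiolipin synthase, was at 18.2 to 22.7 FPKM at 42 days, 15.6 to 20.3 FPKM at 126 days and 20.7 to 25.8 FPKM at 180 days. The 180-day birds of CRLS1 were all above the 126-day birds, but the log2 fold change was 0.25 and did not pass (limma adjusted p = 0.390).

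**Figure D4:**
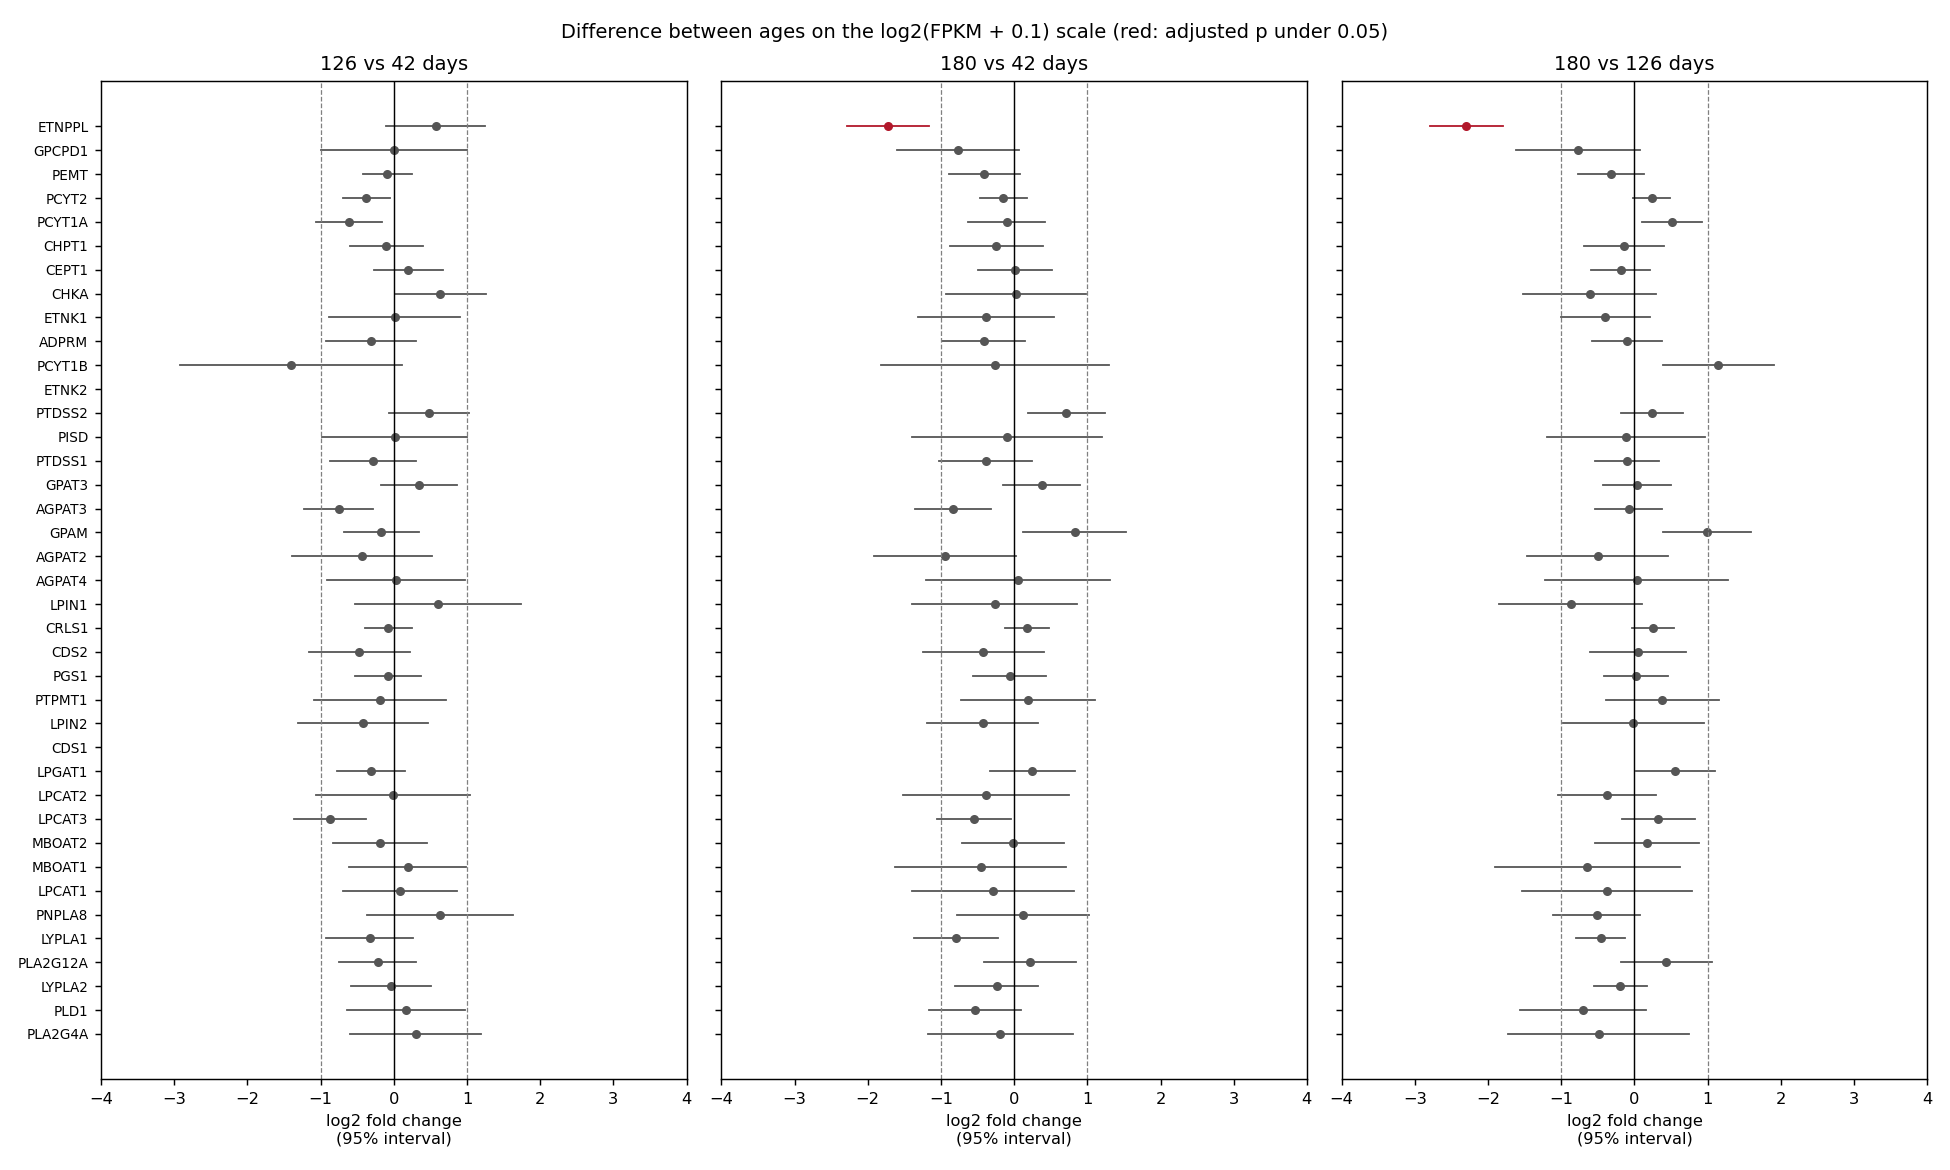
Log2 fold change with its 95% interval for the 37 genes tested, in the order of the steps, for 126 against 42 days, 180 against 42 days and 180 against 126 days. Red marks a limma adjusted p under 0.05, which ETNPPL reached in the last 2 comparisons (-1.72 and -2.30); dashed lines mark a change of 2-fold.

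Acyl chain remodelling is carried out by enzymes that reattach a fatty acid to a lysophospholipid. LPCAT3, which favours polyunsaturated chains, came closest to the threshold among genes that did not pass between a pair of ages. It was at 4.37, 4.21, 6.64, 5.67 and 7.25 FPKM at 42 days, 3.32, 2.96, 2.08, 3.69 and 2.99 FPKM at 126 days, and 5.74, 3.08, 3.64, 3.45 and 3.26 FPKM at 180 days. The 42-day birds were all above the 126-day birds, and bird 1 was the only 180-day bird inside the 42-day range. The log2 fold change between 42 and 126 days was -0.87 (SE 0.22, 95% interval -1.36 to -0.39, limma adjusted p = 0.0560), and it passed when all 3 ages shared a fit (limma adjusted p = 0.0376). In the F test the limma adjusted p was 0.0619. With 1 bird left out it lay between 0.0232 and 0.1245. It passed in 1 of 15 such fits, the one without bird 1 of 180 days. In that fit 11.2% of all genes passed, against 6.28% with all birds.

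LPGAT1, an acyltransferase of lysophospholipids, had the highest mean of this step. It was at 4.58, 5.35, 8.50, 7.78 and 6.82 FPKM at 42 days, 5.35, 4.44, 4.21, 5.88 and 6.23 FPKM at 126 days, and 6.54, 5.74, 5.50, 10.6 and 12.0 FPKM at 180 days. Birds 4 and 5 of 180 days were the highest of the 15 and the others overlapped (log2 fold change between 126 and 180 days 0.56, limma adjusted p = 0.297). In bird 4 of 180 days, 2.88 FPKM lay in a second entry that was listed at 0 in the other 14 birds. In the first entry that bird was at 7.72 FPKM, below birds 3 and 4 of 42 days (8.50 and 7.78 FPKM). LPCAT2, an acyltransferase of inflammatory cells that also makes platelet-activating factor, was at 20.5 FPKM in bird 5 of 42 days and at 2.17 to 7.08 FPKM in the other 14 birds. LPCAT1, MBOAT1 and MBOAT2 had means between 0.758 and 3.01 FPKM, and MBOAT1 was highest in bird 1 of 180 days (5.86 FPKM) and bird 1 of 126 days (4.55 FPKM). In bird 1 of 180 days, 4.78 FPKM of MBOAT1 lay in its second entry. In the first entry that bird was at 1.08 FPKM, against 0.56 to 1.24 FPKM in the other birds of its age. The log2 fold change of MBOAT1 between 42 and 180 days was -0.46 with all birds (limma adjusted p = 0.721). It was -1.15 without bird 1 of 180 days, bird 1 of 126 days and bird 5 of 42 days (limma adjusted p = 0.0419). That fit was added after the values were seen. It left out the highest 180-day bird and the lowest 42-day bird (1.11 FPKM) of MBOAT1. Both removals move the value towards a fall, so no conclusion is drawn from it.

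Among the breakdown enzymes, PNPLA8, a calcium-independent phospholipase of mitochondria and peroxisomes, had the highest mean. It was at 7.58, 13.1, 13.6, 20.5 and 54.4 FPKM at 42 days, 26.4, 30.8, 15.5, 49.5 and 21.9 FPKM at 126 days, and 25.3, 15.4, 17.3, 20.5 and 16.4 FPKM at 180 days. The ages overlapped, and 4 of 5 birds of 42 days were at or below 20.5 FPKM (log2 fold change between 42 and 126 days 0.63, 95% interval -0.36 to 1.63, limma adjusted p = 0.474). That value was 1.05 without bird 5 of 42 days and 0.34 without bird 1 of 42 days, and lay at 0.41 without bird 4 of 126 days, none of which passed. LYPLA1, a thioesterase first described as a lysophospholipase, was at 14.1, 22.4, 15.5, 16.7 and 41.0 FPKM at 42 days and at 10.4, 11.3, 13.1, 11.3 and 12.1 FPKM at 180 days. These groups did not overlap, and the log2 fold change was -0.79 (95% interval -1.36 to -0.23, limma adjusted p = 0.128). Its homologue LYPLA2 had means of 11.7, 10.7 and 9.39 FPKM.

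PLA2G12A, a secreted phospholipase, had means of 12.3, 10.5 and 14.7 FPKM with overlap of all ages. PLA2G4A, the cytosolic phospholipase that releases arachidonate, was at 5.06 FPKM in bird 1 of 126 days and 4.11 FPKM in bird 1 of 180 days, and at 0.59 to 1.63 FPKM in the other 13 birds. PLD1, which turns phosphatidylcholine into phosphatidate, was at 8.58 FPKM in bird 1 of 126 days and at 1.21 to 3.99 FPKM elsewhere. In that bird 8.11 FPKM lay in the first entry, which was at 0 to 1.34 FPKM in the other birds of its age. The log2 fold change of PLD1 between 42 and 180 days was -0.54 with all birds (limma adjusted p = 0.377). It was -0.86 without the 3 birds named above as standing apart (limma adjusted p = 0.0386). That fit was added after the values were seen. It left out the lowest 42-day bird (1.91 FPKM) and the highest 180-day bird (3.27 FPKM) of PLD1. Both removals move the value towards a fall, so no conclusion is drawn from it. In that setting 3 of 36 genes passed between 42 and 180 days, ETNPPL, MBOAT1 and PLD1, against 11.6% of all genes.

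**Figure D5:**
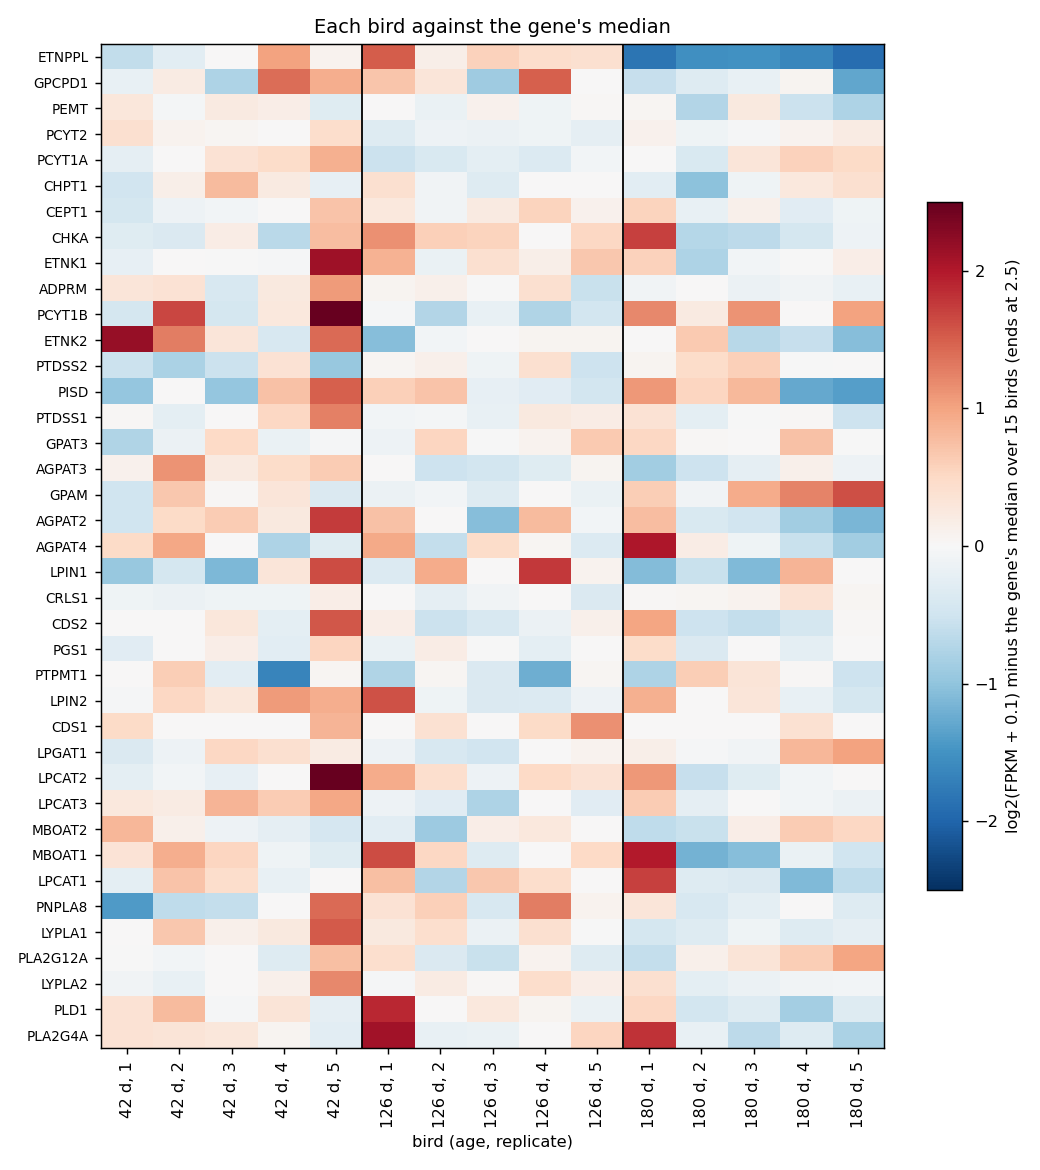
Log2(FPKM + 0.1) of each of the 39 genes in each bird minus the gene's median over the 15 birds (colour, limits at 2.5), with black lines between the ages. Bird 5 of 42 days is the highest of the 15 for 16 of the 37 genes tested.

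Single birds carried much of the spread. Bird 5 of 42 days was the highest of the 15 birds for 16 of 37 genes, against 26.4% of all genes, and bird 1 of 126 days and bird 1 of 180 days were each the highest for 4, against 17.1% and 17.7% of all genes. Bird 5 of 180 days was the lowest for 9 of 37 genes and bird 2 of 180 days for 7, against 6.52% and 14.6% of all genes. The genes highest in bird 5 of 42 days belonged to all steps, among them PCYT1A, PCYT2, PTDSS1, CDS2, LPCAT3 and LYPLA2. That bird also had the lowest fast fibre markers, and their part in these levels was not tested.

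As a group, the 37 genes are described by their median beside that of all genes, with no test. The median log2 fold change was -0.08 between 42 and 126 days, against -0.15 over all genes. It was -0.24 between 42 and 180 days, against -0.13, and -0.11 between 126 and 180 days, against 0.01. Quantile normalization moved the median of all genes to -0.01, 0.00 and 0.01, and that of the 37 genes to 0.03, -0.07 and -0.09, so the direction of the first turned. Single birds moved these medians as well. Without bird 5 of 42 days the median between 42 and 180 days was -0.04, against -0.06 over all genes, so the 37 genes were no longer the lower. Without bird 1 of 180 days it was -0.40 against -0.23, and between 126 and 180 days -0.22 against -0.07. Without the 3 birds that stood apart it was -0.10 against -0.15 between 42 and 180 days and -0.19 against -0.01 between 126 and 180 days. Between 42 and 126 days it lay between -0.17 and -0.05 with 1 bird left out, against -0.23 to -0.09 over all genes. The later age had the lower log2 mean for 22, 26 and 22 of 37 genes, against 63.4%, 63.5% and 49.4% of all genes. The median absolute log2 fold change was 0.29, 0.29 and 0.37, against 0.31, 0.29 and 0.27 over all genes. The 95% interval lay within a 2-fold change either way for 20, 14 and 18 of 37 genes, against 54.2%, 52.9% and 55.6% of all genes. For the other genes that did not pass, a change of 2-fold was within the interval.

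Other genes of glycerophospholipid metabolism were taken from a list of 84 symbols, of which 62 were found and 50, 51 and 49 were tested in the 3 comparisons. Between 42 and 126 days 1 of 50 passed, against 3.21% of all genes, and between 42 and 180 days 1 of 51, against 3.41%, PLA2G2E each time. Between 126 and 180 days 0 of 49 passed, against 1.25% of all genes. In the F test 5 of 51 passed, PLA2G2E, NAPEPLD, GPD2, PNPLA2 and PHOSPHO1, against the 6.28% of all genes given above. PLA2G2E, a secreted phospholipase, was at 3.27, 2.37, 2.92, 2.72 and 3.71 FPKM at 42 days, 5.01, 5.46, 4.45, 6.31 and 4.53 FPKM at 126 days, and 4.66, 6.89, 10.7, 8.47 and 8.26 FPKM at 180 days. All older birds were above all 42-day birds. It rose by 1.31 on the log2 scale between 42 and 180 days (SE 0.23, limma adjusted p = 0.0102), a call kept with each bird left out. The rise of 0.77 between 42 and 126 days lay at the threshold (limma adjusted p of 0.049996) and was kept in 1 of 10 fits that left out 1 bird, the adjusted p lying between 0.0321 and 0.120.

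NAPEPLD, which releases N-acylethanolamines from phospholipids, was at 17.6 to 32.2 FPKM at 42 days and at 33.1 to 55.9 FPKM in the older birds, with no overlap (limma adjusted p = 0.0302 in the F test). GPD2, the mitochondrial glycerol phosphate dehydrogenase, had means of 86.3 ± 24.2, 48.1 ± 9.88 and 46.1 ± 11.0 FPKM (SD, n = 5 each, limma adjusted p = 0.0304). PNPLA2, the triglyceride lipase that supplies fatty acids, was at 80.2 to 246 FPKM at 42 days, 55.0 to 106 FPKM at 126 days and 10.1 to 71.1 FPKM at 180 days (limma adjusted p = 0.0317). PHOSPHO1, a phosphatase of phosphoethanolamine and phosphocholine, had means of 26.6 ± 5.96, 20.1 ± 4.20 and 38.7 ± 10.1 FPKM (SD, n = 5 each, limma adjusted p = 0.0436). Its 180-day birds, at 25.1 to 50.9 FPKM, were all above the 126-day birds, at 13.0 to 24.0 FPKM. Its pairwise log2 fold change of 0.93 did not pass (limma adjusted p = 0.0633). It passed in 1 of 10 fits with a bird left out, the one without bird 1 of 180 days (limma adjusted p = 0.0226). With 1 bird left out the F test was kept in 11 of 15 fits for NAPEPLD and PNPLA2, 9 for GPD2 and 4 for PHOSPHO1.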

How the data were processed

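PolyA RNA of 15 breast muscles was sequenced by the authors, who used Cutadapt 1.9 for trimming, FastQC 0.11.9 for read quality and, per the submitters' processing notes, HISAT2 2.2.1 and StringTie 2.1.6. The genome build is not given in the sources used here, so no positions are printed. The deposited values are FPKM with 2 decimals, without read counts, so depth and counting error are unknown, and the count test of the study's methods could not be used. The study's text gives 10 hens per age, and the table holds 5.

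Entries that share a gene name (up to 7 per gene among the 39 genes, probably transcripts, which is not stated) were summed. Tests used limma 3.58.1 (R 4.3.3) with its trend option on log2(FPKM + 0.1), for 2 ages at a time (10 birds) or as an F test over 15 birds. Genes needed a mean of 0.5 FPKM or more, with Benjamini-Hochberg adjustment over all genes. The labels call the samples separate chickens, so the p-values measure spread between birds. Alternatives were a pseudocount of 1, no filter or a mean of at least 1 FPKM, rescaling to a sum of 1000000, quantile normalization, the highest entry of each gene name, all 3 ages in a single fit, a replicate block, and each bird left out. A fit without 3 birds together was added after the values were seen. The procedure was also run on simulated independent normal values with log2 changes of 2 in 200 genes. Such values lack the single outlying birds of these data, and the outcome is not given here.

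The members and lists were chosen with earlier results of these data known. Values in every bird are given for each member that passed a test and for the member with the highest mean in each step. CHKA, PCYT2, GPAM, LPCAT3, LYPLA1 and the other members given with a fold change or single birds were chosen after their values were seen. Other pathway genes are named where they passed. Figures were drawn with matplotlib 3.10.9.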

Additional observations from a re-analysis of the deposited data

Results flagged for a closer look

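Within an age, 29 of the 117 sets of 5 birds examined for the 39 genes held a bird far from the other 4 by Dixon's test on FPKM. A rate of 1 in 20, or 5.85 sets, holds for normal values in independent sets. The values here were not on the log scale and the sets share 15 birds, so no contrast with chance is drawn. The count was not made over all genes, so it is not a trait of these genes. Of the 29 sets, 11 were bird 1 of 180 days, 9 bird 5 of 42 days, 6 bird 1 of 126 days, 2 bird 4 of 180 days and 1 bird 4 of 42 days. The first 3 are the birds whose markers stood apart. These were chiefly B cell, macrophage and T cell markers in the first, and low fast fibre markers in the second. In the third they were fibroblast, macrophage, erythrocyte, B cell, T cell, endothelial and adipocyte markers. The part of other cells in these levels was not tested.

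In bird 1 of 180 days, CHKA was at 20.7 FPKM (3.78 to 5.78 in the other birds of its age), MBOAT1 at 5.86 (0.56 to 1.24) and PLA2G4A at 4.11 (0.59 to 0.95). AGPAT2 was at 2.47 FPKM (0.58 to 1.05), AGPAT4 at 2.06 (0.19 to 0.50), LPCAT1 at 2.35 (0.25 to 0.50) and LPCAT2 at 7.08 (2.17 to 3.30). CDS2 was at 9.50 FPKM (3.10 to 4.81), LPCAT3 at 5.74 (3.08 to 3.64), LYPLA2 at 12.6 (7.97 to 8.99) and PLD1 at 3.27 (1.21 to 1.78). All 11 were high values, though 4.78 FPKM of MBOAT1 and 3.2 FPKM of PLD1 each lay in an entry listed at 0 in the other birds of that age.

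In bird 5 of 42 days, LPCAT2 was at 20.5 FPKM (2.76 to 3.27 in the other birds of its age), ETNK1 at 13.5 (2.60 to 3.03) and PCYT1B at 11.5 (0.51 to 2.54). PNPLA8 was at 54.4 FPKM (7.58 to 20.5), CEPT1 at 23.0 (10.3 to 13.9) and CDS2 at 14.0 (3.96 to 5.74). LYPLA2 was at 21.9 FPKM (8.26 to 10.3), PLA2G12A at 19.0 (9.02 to 11.3) and CRLS1 at 22.7 (18.2 to 18.8).

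In bird 1 of 126 days, ETNPPL was at 183 FPKM (70.9 to 96.1 in the other birds of its age), PLD1 at 8.58 (1.99 to 2.74), PLA2G4A at 5.06 (0.95 to 1.63), MBOAT1 at 4.55 (1.10 to 2.04) and LPIN2 at 2.32 (0.52 to 0.64). ETNK2 was listed at 0 there and at 0.10 to 0.12 FPKM in the others. In bird 4 of 42 days PTDSS2 was at 37.7 FPKM (15.1 to 20.1). In bird 4 of 180 days CRLS1 was at 25.8 FPKM (20.7 to 21.5) and CDS1 at 0.03 FPKM, with the other 4 birds listed at 0.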

How the results depend on the processing

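ETNPPL stayed past the threshold in both comparisons with 180 days under all 8 alternatives, each bird left out and the fit without 3 birds, with limma adjusted p of 0.00287 to 0.0176 against 42 days and 0.000228 to 0.00817 against 126 days. The number of phospholipid genes that passed depended on the setting. With all 3 ages in a single fit it was 1 (LPCAT3) between 42 and 126 days (4.43% of all genes). Under that setting it was 2 (AGPAT3 and ETNPPL) between 42 and 180 days (3.92%). In the F test it was 1 with a pseudocount of 1, with no filter, with quantile normalization, with the highest entry and with the replicate number as a block. Without the 3 birds it was 0 between 42 and 126 days, 3 between 42 and 180 days (11.6% of all genes), 2 between 126 and 180 days (4.48%) and 6 in the F test (CHKA, ETNPPL, LPCAT3, MBOAT1, PLA2G12A and PLD1, against 17% of all genes). With each bird left out it was 0 to 0 between 42 and 126 days, 1 to 2 in the other pairs and 1 to 3 in the F test, where the shares of all genes were 0.698% to 4.13%, 1.57% to 9.15%, 0.130% to 4.48% and 3.36% to 11.2%. In the pairs, the count of 2 came without bird 4 of 42 days (42 with 180 days, 2.05% of all genes) or bird 1 of 180 days (126 with 180 days, 4.48%). In the F test, the count of 3 came without bird 1 of 180 days (11.2%).

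Among all genes, the counts that passed were 369, 399, 144 and 729 in the order 42 with 126, 42 with 180, 126 with 180 days and F test. With the highest entry they were 56, 189, 20 and 283, and without the 3 birds 792, 1309, 492 and 1911. Without a filter they were 204 for the first and 65 for the third. With each bird left out they ranged from 80 to 469, 183 to 1036, 15 to 501 and 389 to 1280. Quantile normalization changed the split from 74 higher and 295 lower to 171 and 225 in the first, and from 84 and 60 to 36 and 64 in the third. The causes were not tested. With the replicate number as a block the third count was 392. Birds with the same number deviated together with r of -0.13 to 0.16, -0.11 to 0.15 and -0.02 to 0.32, and 1, 1 and 3 of 5 correlated best with their own number. An r above 0.1 was found for 3, 2 and 4 of 5 pairs. What the number stands for is not stated, and whether birds of the same number share anything was not tested.

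No depth is known, and the precision rests on 5 birds per age. A p that missed the threshold does not show equal levels. Levels of genes with several entries depend on how reads were divided among them.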

Other observations

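Of the 39 genes, 10 had a single entry and 29 several, and in some genes different birds held their level in different entries. LPIN2 held 0.66 to 1.51 FPKM in its second entry in birds 1, 2, 4 and 5 of 42 days, and that entry was listed at 0 in the other 11 birds, which held 0.43 to 2.05 FPKM in the first. AGPAT3 held its whole level in the first entry in 14 birds, while bird 2 of 126 days held 0.77 FPKM there and 6.28 FPKM in the second. PCYT2 held 8.29 FPKM in its first entry and 9.66 FPKM in another in bird 3 of 126 days, and the latter entry was listed at 0 in the other 14 birds. In LPCAT2, 11.8 of the 20.5 FPKM of bird 5 of 42 days lay in the second entry, which was at 0.02 FPKM or less in the other birds. MBOAT1 held 4.78 of its 5.86 FPKM in the second entry in bird 1 of 180 days. That entry was at 2.01 FPKM in bird 5 of 126 days and listed at 0 in the others. ETNPPL had nearly its whole level in 1 of 2 entries. For AGPAT3, using the highest entry alone gave a log2 fold change between 42 and 126 days of -1.36 instead of -0.75, with limma adjusted p = 0.340 instead of 0.0860.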
